A study of Mus musculus with 9 samples.

Results

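Lgi4, Fxyd3 and Adam22 are 3 of the 25965 gene entries counted in mouse sciatic nerve, and all 3 were chosen by name. Lgi4 is the LGI ligand of peripheral nerve, Adam22 encodes its receptor, and Fxyd3 is the gene that overlaps Lgi4 on the opposite strand. Total RNA was sequenced from sciatic nerves of PINCH1 mutants, PINCH2 mutants and control littermates, all on a C57BL/6 background, with 3 libraries per genotype. Each library was a pool of 4 nerves taken from 1 male and 1 female, so a replicate is a pool and not an animal. The age is given as postnatal day 15 in one label field and as day 14 in the protocol, and the epineurium had been removed. The alleles of the mutants, and whether the genes were removed in all cells or in some, are not stated in the labels.

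LGI proteins are secreted and bind members of the ADAM family that have lost protease activity. In peripheral nerve Lgi4 is made by Schwann cells and binds Adam22 on the axon, and mice that lack either protein have nerves in which axons are sorted and myelinated late and poorly. Fxyd3 belongs to a family of small membrane proteins that bind the Na,K-ATPase and tune its transport, and it is best known from epithelia. PINCH1 and PINCH2, encoded by Lims1 and Lims2, are adaptor proteins that join integrin-linked kinase to parvins at integrin adhesions.

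Library totals ran from 957828 to 1204964 counts, and a library had 9674 to 11240 entries above 0. The genes that the genotypes name were too low to check the labels: Lims1 had 0, 1 and 3 counts in PINCH1 mutants, 0, 1 and 9 in PINCH2 mutants and 3, 7 and 7 in controls, and Lims2 had 1 to 9 counts in every library. Myelinating Schwann cell markers, 10 of 10 of which were counted, summed to 12543 to 14024 TMM-scaled CPM in PINCH1 mutants, 12529 to 14358 in PINCH2 mutants and 15906 to 18300 in controls. CPM are counts after each library is brought to 1 common total, and TMM (trimmed mean of M-values) corrects that total for composition. Both mutant groups lay below the controls in that sum, on library totals by a narrow margin, with up to 14560 CPM in PINCH1 mutants, up to 13912 CPM in PINCH2 mutants and at least 14729 CPM in controls, while 0 of the 10 markers passed the test described below in any comparison. The 10 neuron markers summed to 62.4 to 137 TMM-scaled CPM in PINCH1 mutants, 122 to 195 in PINCH2 mutants and 94.2 to 190 in controls, with Snap25, Syt1 and Rbfox3 at 0 in all 9 libraries. Nearly all of that sum was Nefm, which averaged 122 TMM-scaled CPM and overlaps Nefl on the opposite strand, and Nefh, the next, averaged 7.21. What part these marker sums have in the results on the members was not tested.

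In the GRCm38 build, Lgi4 lies at chr7:31059342-31070935 on the plus strand and Fxyd3 at chr7:31068172-31076704 on the minus strand, and their 3′ ends overlap. Their exons share 2059 bases, from 31068877 to 31070935, which is 44.9% of the 4584 exon bases of Lgi4 and 42.5% of the 4850 exon bases of Fxyd3 in GENCODE M21. The shared stretch is the whole of exon 9, the last exon of the transcript Lgi4-201, which holds 312 of its 1611 coding bases and its 3′ untranslated region. On the Fxyd3 side, the size of the overlap depends on the transcript. Fxyd3-205, which ends in an exon of 2549 bases, shares 1882 bases with Lgi4, the next longest coding transcript, Fxyd3-201, shares 221, and the shortest one shares 6. In RefSeq, Fxyd3 ends nearer to its own start, and the spans of the genes share only 401 bases.

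The coding sequence of Fxyd3 is shown because its end lies over Lgi4. It is read 5′ to 3′ on the minus strand from Fxyd3-205 (chr7:31070701-31073621, exons joined), and capitals mark the 58 of 267 bases, 21.7%, that lie within exon 9 of Lgi4.
Fxyd3 coding sequence: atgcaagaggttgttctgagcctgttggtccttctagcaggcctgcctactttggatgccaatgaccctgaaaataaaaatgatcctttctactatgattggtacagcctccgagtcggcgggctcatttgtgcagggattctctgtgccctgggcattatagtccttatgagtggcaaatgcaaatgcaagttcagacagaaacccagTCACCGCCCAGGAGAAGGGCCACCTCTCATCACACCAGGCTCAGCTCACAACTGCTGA

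A second stretch shows the same bases as each gene reads them at chr7:31069162-31069191, where the Lgi4 coding sequence ends. Capitals mark the stop codon of Lgi4 on the plus strand and the bases opposite it on the minus strand, which fall in the 3′ untranslated part of Fxyd3-205.
Lgi4 plus strand: cagcaccatgaattggatctcagtgccTGA
Fxyd3 minus strand: TCAggcactgagatccaattcatggtgctg
A transcript of either gene that reaches this stretch carries 1 of these sequences, and only the strand on which its reads were counted gives them to Lgi4 or to Fxyd3. Of the annotated Fxyd3 transcripts, only Fxyd3-205 reaches it, and the others that overlap Lgi4 do so at 31070535 or beyond. How strand was handled in the counting is unknown from the labels and notes, so in the shared exon the counts of Lgi4 and Fxyd3 cannot be told apart. Counts in the table fell mostly on entries of this kind: 86.3% to 90.4% of the counts of a library were on entries whose exons overlap those of a gene on the opposite strand, against 24.7% of entries that have such a partner. If reads were counted on the strand opposite to their transcripts, RNA of Lgi4 from the shared exon stands under the name Fxyd3 and RNA of Fxyd3 under the name Lgi4, so that the whole Fxyd3 entry may be Lgi4 RNA. Which of these holds was not tested. Values below are given for the entry under each name, and no value says which gene the RNA came from.

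**Figure D1:**
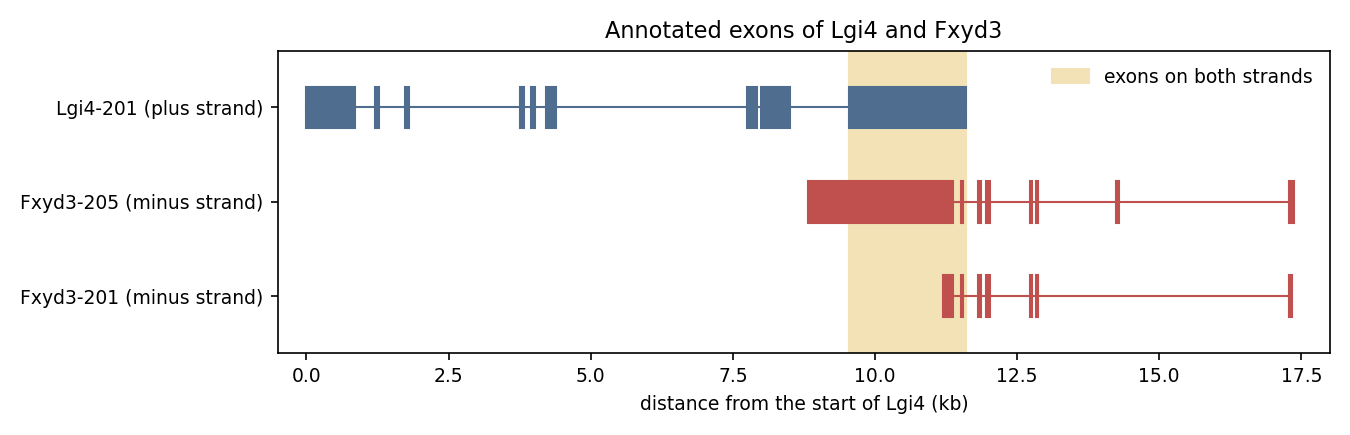
Annotated exons (boxes) of Lgi4-201 on the plus strand and of the coding transcripts Fxyd3-205 and Fxyd3-201 on the minus strand, against distance in kb from the start of Lgi4. The shaded 2059 bases are exonic on both strands and cover the last exon of Lgi4-201.

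Adam22 has no such partner, but the doubt about strand holds for it too. It lies at chr5:8072352-8368160 on the minus strand, with 14348 exon bases in 35 blocks, and no exon of another gene lies over its exons on the opposite strand. If reads were counted on the strand opposite to their transcripts, the counts under Adam22 would not be its own transcripts, which was not tested. Within the span of Adam22 is AC140364.1 on the plus strand, which had 0 counts in all libraries. The nearest neighbour is Sri, the gene of the calcium-binding protein sorcin, which runs toward Adam22 on the plus strand and ends 2973 bp away. Sri had 12, 5 and 15 counts in PINCH1 mutants, 13, 19 and 15 in PINCH2 mutants and 30, 13 and 27 in controls, fewer than Adam22 in every library.

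The entries differed widely in level. In CPM per kb of exon, Fxyd3 had a median of 2199 (1512 to 2720 over the 9 libraries), Lgi4 a median of 363 (220 to 439) and Adam22 a median of 4.18 (3.23 to 5.66). None of the 3 ranges overlapped another, and the order Fxyd3, Lgi4, Adam22 held in every library. Fxyd3 ranked from 5th to 9th of all entries by counts, and from 19th to 39th per kb. Lgi4 ranked from 73rd to 157th by counts and Adam22 from 1209th to 1723rd. Per kb, the Fxyd3 entry was 4.87 to 9.91 times the Lgi4 entry within a library. This is an order of entries, and if reads were counted on the opposite strand it need not be that of the RNA of the genes. The shared bases are 44.9% of the exon bases of Lgi4 and 42.5% of those of Fxyd3. The values per kb were divided by all exon bases of an entry. These lengths join the exons of all transcripts of a gene, including those with retained introns, and which transcripts were present is not known from gene counts.

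Fxyd3 is known as an epithelial gene, so epithelial markers are set beside it. Of 10 such markers, Krt5, Krt14, Krt18, Epcam and Elf3 had 0 counts in all 9 libraries. All 10 together summed to 76.8 to 98.7 TMM-scaled CPM in PINCH1 mutants, 42.2 to 78.6 in PINCH2 mutants and 32.0 to 43.4 in controls. The PINCH1 pools lay above all controls in that sum, and Krt10 carried the difference, with 69, 67 and 76 counts in PINCH1 mutants, 53, 74 and 30 in PINCH2 mutants and 10, 25 and 32 in controls. Scaled by TMM, Krt10 lay above all controls in both mutants, as did 6.16% of tested entries in PINCH1 mutants and 4.24% in PINCH2 mutants. Its edgeR adjusted p was 0.126 in PINCH1 mutants and 0.999 in PINCH2 mutants, and it overlaps Gm11940 on the opposite strand. The only other marker with more than 3 counts in a library was Cdh1, with 19, 20 and 16 counts in PINCH1 mutants, 14, 20 and 11 in PINCH2 mutants and 21, 21 and 7 in controls. The Fxyd3 entry alone held 7062 to 10725 TMM-scaled CPM in PINCH1 mutants, 10751 to 13932 in PINCH2 mutants and 10351 to 12669 in controls. The part of the epithelial markers in those values was not tested. If reads were counted on the opposite strand, low or 0 counts of these markers need not mean that their RNA was low.

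Among pairs of coding genes with overlapping exons on opposite strands, Fxyd3 and Lgi4 were less one-sided than the median pair, but within the quartiles. Over the 597 such pairs with at least 1000 counts in all, a median of 93.6% of a pair's counts were on the higher entry (quartiles 79.4% and 98.5%), and for Fxyd3 and Lgi4 it was 87.2%. A smaller share on the higher entry was found in 208 of the pairs. The lower entry of such a pair had a median of 263 counts summed over the 9 libraries, while Lgi4 had 15231, and 1 pair had a lower entry with more. The Fxyd3 entry had 103479, so the total of this pair was high as well.

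Differences between genotypes were tested for all entries together with edgeR's quasi-likelihood test over the 9 libraries, on counts scaled by TMM, with Benjamini-Hochberg adjustment over the 4738 entries that passed a filter on low counts. All 3 members passed the filter. None of them passed an adjusted p of 0.05 in any comparison. Of all tested entries, 0.0633% passed between PINCH1 mutants and controls, 0.0211% between PINCH2 mutants and controls and 0.0844% between PINCH1 and PINCH2 mutants, so the members' count of 0 of 3 is near that background. The sizes and errors below describe what could be seen with 3 pools a group. In whole nerve, fewer cells of a type and less RNA per cell cannot be told apart.

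The Lgi4 entry, under the name of the ligand, had similar means in all genotypes, with a wide spread between pools. If reads were counted on the opposite strand, RNA of the ligand from the shared exon is under the Fxyd3 entry, given after these. The TMM-scaled CPM of the Lgi4 entry was 1372, 1812 and 1672 in PINCH1 mutants, 2075, 1201 and 1753 in PINCH2 mutants and 2154, 987 and 1663 in controls. The groups overlapped in every comparison, and the lowest and the highest library were both controls. Lgi4 averaged 1619 ± 225 TMM-scaled CPM in PINCH1 mutants, 1676 ± 442 in PINCH2 mutants and 1601 ± 586 in controls (SD, n = 3 each). The log2 fold change was 0.02 (SE 0.26, edgeR adjusted p = 0.993) in PINCH1 mutants against controls and 0.07 (SE 0.26, edgeR adjusted p = 0.999) in PINCH2 mutants against controls. Between PINCH1 and PINCH2 mutants it was -0.05 (SE 0.26, edgeR adjusted p = 0.993). Without control replicate 2, the lowest library, the changes against controls were -0.24 in PINCH1 mutants and -0.19 in PINCH2 mutants, with adjusted p of 0.896 and 1.00.

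The Fxyd3 entry, under the name of the gene across from Lgi4, was lower in PINCH1 mutants than in the other genotypes, by an amount that did not pass the adjusted test. Its TMM-scaled CPM was 7062, 10725 and 9187 in PINCH1 mutants, 11888, 10751 and 13932 in PINCH2 mutants and 12625, 10351 and 12669 in controls. All 3 PINCH1 pools lay below all 3 PINCH2 pools, by a narrow margin, while 1 of them lay above the lowest control. Fxyd3 averaged 8992 ± 1839 TMM-scaled CPM in PINCH1 mutants, 12190 ± 1612 in PINCH2 mutants and 11882 ± 1326 in controls (SD, n = 3 each). In PINCH1 mutants against controls the log2 fold change was -0.40 (SE 0.15), a ratio of 0.757, with an edgeR p of 0.0157 and an adjusted p of 0.650.

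Between PINCH1 and PINCH2 mutants the log2 fold change of Fxyd3 was -0.44 (SE 0.15), with an edgeR p of 0.00918 and an adjusted p of 0.602. Groups that did not overlap, with the lower values in PINCH1 mutants, were found for 5.57% of tested entries in that comparison. PINCH2 mutants and controls differed by 0.04 on the log2 scale (SE 0.15, edgeR adjusted p = 0.999). As a share of the library total, with no TMM correction, Fxyd3 took 0.733%, 0.987% and 0.914% in PINCH1 mutants, 1.15%, 1.07% and 1.32% in PINCH2 mutants and 1.17%, 1.06% and 1.28% in controls. On that scale the PINCH1 pools lay below all controls as well, as did 7.58% of tested entries. With library totals in place of TMM, a scaling added after the values were seen, the log2 fold change against controls was -0.42 (edgeR adjusted p = 0.422).

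The summed level of the myelinating Schwann cell markers, given above, was below that of all controls in every PINCH1 and PINCH2 pool, while the Fxyd3 entry in PINCH2 mutants overlapped the controls. The part of the marker levels in the Fxyd3 values was not tested.

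The Adam22 entry, under the name of the receptor, was highest in PINCH2 mutants, again without passing the adjusted test. It had 49, 70 and 62 counts in PINCH1 mutants, 79, 90 and 81 in PINCH2 mutants and 52, 50 and 66 in controls. At this depth counting error is large: the library with 49 counts has an exact 95% Poisson interval of 36.3 to 64.8, for counting error only. Scaled by TMM, these counts came to 44.7, 79.4 and 51.7 CPM in PINCH1 mutants, 83.6, 75.3 and 81.4 CPM in PINCH2 mutants and 53.8, 47.1 and 59.1 CPM in controls. All PINCH2 pools lay above all controls, and 1 PINCH1 pool lay among the PINCH2 values.

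Adam22 averaged 58.6 ± 18.4 TMM-scaled CPM in PINCH1 mutants, 80.1 ± 4.32 in PINCH2 mutants and 53.3 ± 6.01 in controls (SD, n = 3 each). In PINCH2 mutants against controls the log2 fold change was 0.58 (SE 0.26), with an edgeR p of 0.0382 and an adjusted p of 0.999. Groups that did not overlap, with the higher values in PINCH2 mutants, were found for 4.24% of tested entries. In PINCH1 mutants against controls it was 0.13 (SE 0.27, edgeR adjusted p = 0.974), and -0.14 without PINCH1 mutant replicate 2. Between PINCH1 and PINCH2 mutants it was -0.46 (SE 0.26, edgeR adjusted p = 0.888). The neuron marker sums in PINCH2 mutants and controls, given above, overlapped. Which cells the Adam22 counts came from was not tested, and RNA counts of nerve do not measure the receptor protein on the axon. For Sri, the convergent neighbour, the log2 fold change in PINCH2 mutants against controls was -0.58 (SE 0.44, edgeR adjusted p = 0.999).

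**Figure D2:**
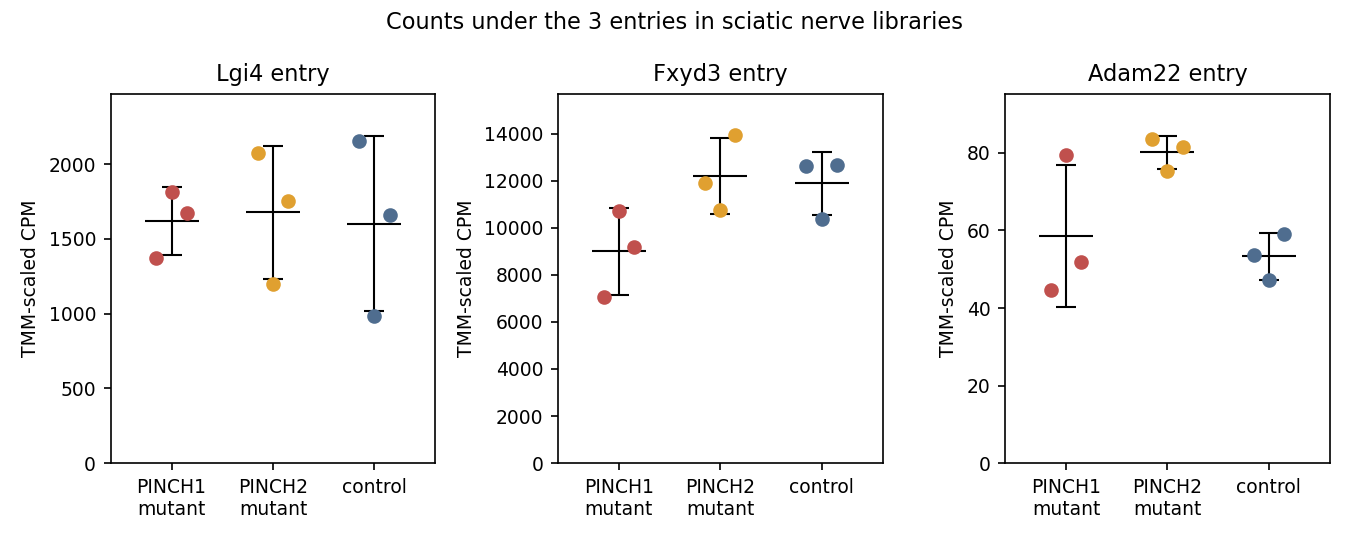
TMM-scaled CPM of the Lgi4, Fxyd3 and Adam22 entries in each library (points), with the mean and SD of the 3 pools of a genotype (lines), each axis starting at 0. The Lgi4 groups overlap, the PINCH1 pools are below the PINCH2 pools for Fxyd3, and the PINCH2 pools, at 75.3 to 83.6 CPM, are above the controls for Adam22.

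**Figure D3:**
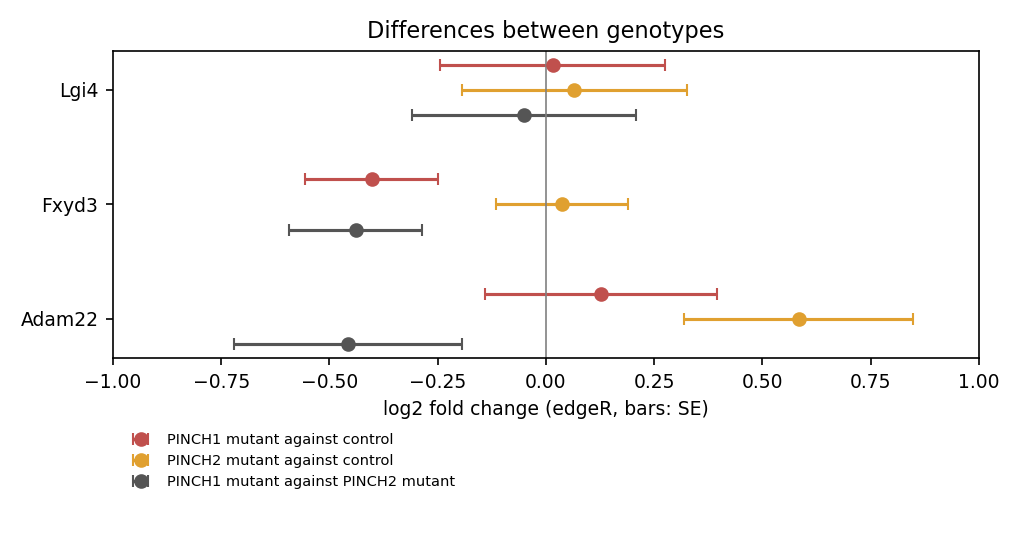
Log2 fold changes of the 3 members (rows) in the 3 comparisons (colours), with SE as bars. Fxyd3 is at -0.40 and -0.44 in the comparisons that hold the PINCH1 mutants, and Adam22 is at 0.58 in PINCH2 mutants against controls.

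Because the strand of the counts is not known, the Fxyd3 and Lgi4 entries were also joined. Their sum had a log2 fold change of -0.35 (SE 0.15, edgeR adjusted p = 0.741) in PINCH1 mutants against controls and 0.04 (SE 0.15, edgeR adjusted p = 0.999) in PINCH2 mutants against controls. Between PINCH1 and PINCH2 mutants it was -0.39 (SE 0.15, edgeR adjusted p = 0.756). The joined entry thus gave changes close to those of Fxyd3, which holds most of its counts.

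The division of those counts between the names also varied. Fxyd3 took 83.7%, 85.5% and 84.6% of the joined counts in PINCH1 mutants, 85.1%, 89.9% and 88.8% in PINCH2 mutants and 85.4%, 91.3% and 88.4% in controls. The exact binomial 95% intervals, for counting error only, were narrow, from 83.0% to 84.5% for the lowest library and from 90.8% to 91.8% for the highest. Pools of 1 genotype thus differed by more than counting error, and the highest PINCH1 pool was just above the lowest pool of each other genotype. The mean share was 84.6% ± 0.905 in PINCH1 mutants, 88.0% ± 2.52 in PINCH2 mutants and 88.4% ± 2.94 in controls (SD, n = 3 each). The difference in mean share was -3.74 percentage points in PINCH1 mutants against controls (two-sided exact permutation test, p = 0.2) and -0.40 points in PINCH2 mutants against controls (exact p = 0.9). Between PINCH1 and PINCH2 mutants it was -3.34 points (exact p = 0.2), and 3 pools against 3 cannot give a p below 0.1 in this test.

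**Figure D4:**
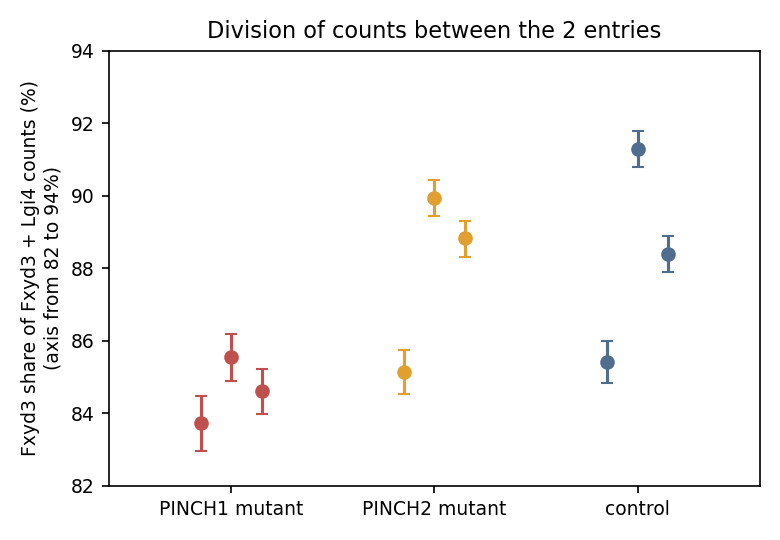
Share of the joined Fxyd3 and Lgi4 counts that the Fxyd3 entry held in each library (points), with exact binomial 95% intervals, on an axis from 82 to 94%. The PINCH1 pools lie between 83.7% and 85.5%, and each of the other genotypes has 1 pool in that range.

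Across the 9 libraries, the members' log2 TMM-scaled CPM moved together loosely. Pearson's r was 0.43 between Lgi4 and Fxyd3 (Spearman's rho 0.43, permutation p = 0.247 and 0.250), and 0.71 without the 2 libraries farthest from the median of Lgi4. The Lgi4 and Adam22 entries, under the names of ligand and receptor, had an r of 0.41 (rho 0.53, permutation p = 0.273 and 0.148), and 0.52 without the same 2 libraries. Fxyd3 and Adam22 had an r of 0.60 (rho 0.67, permutation p = 0.0790 and 0.0589), and 0.21 without the 2 libraries farthest from the median of Fxyd3. Leaving out the libraries farthest from a gene's median narrows its range, so these values cannot show whether an r rested on them. Adjusted over the 3 pairs, the permutation p for r was 0.273, 0.273 and 0.237 in the same order. The 9 libraries span 3 genotypes, and the values share library size and scaling.

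The tested entries most like each member over the 9 libraries, by Pearson's r, included many with an opposite-strand partner, which 58.9% of all tested entries have. For Fxyd3 they included Lrrc61 (r = 0.94), Ccdc101 (0.93), Nkx6-2 (0.92) and Gm15830 (0.91). Lrrc61 averaged 4565 TMM-scaled CPM and lies over Rarres2, the gene of the secreted attractant chemerin, and all of these have such a partner. For Lgi4 they were 1700003F17Rik (0.94), Tenc1 (0.94), Ppp1cb (0.93), Bhlhe41 (0.93) and 2510046G10Rik (0.90), of which 3 have one. The last of these lies over Ccdc101, so an overlapping pair is divided between the lists of Fxyd3 and Lgi4. For Adam22 they were Gm15122 (0.93), Dedd (0.92), Gm15537 (0.89), Smpd4 (0.88) and Ccdc86 (0.87). Each list holds the highest of 4738 entries over few libraries and is given as a description.

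The other LGI proteins and their receptors had few counts or none, where a count of 0 allows up to 3 counts, or 2.49 to 3.13 CPM, in a library. Lgi1, the brain ligand linked to epilepsy in people, had 3 to 18 counts, Lgi3 had 3 counts in 1 library and 0 in the other 8, and Lgi2 had 0 counts in all 9 libraries. Of the other receptors, Adam23 had 3 to 17 counts and Adam11 had 0 to 4. In CPM per kb of exon, the medians were 0.460 for Lgi1, against 363 for Lgi4, and 0.476 for Adam23 and 0.320 for Adam11, against 4.18 for Adam22. The Lgi4 entry was thus the only ligand of 4, and the Adam22 entry the only receptor of 3, that passed the filter on low counts. Of the entries that passed it, 58.9% have an opposite-strand partner, against 24.7% of all entries. If reads were counted on the opposite strand, few counts under a name need not mean little RNA of that gene, which was not tested.

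In the FXYD family, 2 of 7 genes passed that filter, Fxyd3 and Fxyd6, a member known from brain. Fxyd6 had 63, 34 and 30 counts in PINCH1 mutants, 20, 36 and 36 in PINCH2 mutants and 63, 51 and 60 in controls. All PINCH2 pools were below the controls, as for 4.81% of tested entries, and the log2 fold change was -0.93 (SE 0.34), with an edgeR p of 0.0127 and an adjusted p of 0.999. Fxyd1, phospholemman, had 1 to 12 counts, although it is the Na,K-ATPase regulator that neighbours Lgi4, with its start 3686 bp from that of Lgi4 on the other strand. Fxyd2, Fxyd4, Fxyd5 and Fxyd7 had at most 5 counts in any library. In CPM per kb of exon, Fxyd6 had a median of 8.64 and Fxyd3 of 2199.

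The pump that FXYD proteins bind was counted at low levels. Of 7 Na,K-ATPase subunits, 3 passed the filter, and 0 passed the test in any comparison. All 3 had log2 fold changes below 0 in both mutants, with a median of -0.40 in PINCH1 mutants against controls, where the median of all tested entries was -0.02, and -0.40 in PINCH2 mutants against controls, where it was 0.00. Atp1b3, a beta subunit with no opposite-strand partner, had log2 fold changes of -0.37 (SE 0.28) in PINCH1 mutants and -0.07 (SE 0.28) in PINCH2 mutants against controls.

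Genes that act beside Lgi4 and Adam22 at the meeting of axon and Schwann cell were described from lists. Adam22 takes part in the potassium channel clusters next to nodes of Ranvier. Of 9 genes of that scaffold, 2 passed the filter and 0 the test, with a median log2 fold change of -0.39 in PINCH1 mutants and -0.41 in PINCH2 mutants against controls. Kcna1, a potassium channel subunit of these clusters, averaged 84.2 ± 10.8 TMM-scaled CPM in PINCH1 mutants, 82.6 ± 30.2 in PINCH2 mutants and 105 ± 20.2 in controls (SD, n = 3 each). Dlg1, a scaffold protein, had 2 to 13 counts in all libraries.

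For a list of signals from axon to Schwann cell, not all of them neuregulin genes, 6 of 7 genes had an entry. Of these, 5 passed the filter and 0 the test, with medians of 0.05 in PINCH1 mutants and 0.06 in PINCH2 mutants against controls. Nrg1, the neuregulin gene of the list, had 0 counts in all 9 libraries. Bace1, a protease that cuts neuregulin, averaged 1147 ± 93.9 TMM-scaled CPM in PINCH1 mutants, 1313 ± 411 in PINCH2 mutants and 1053 ± 147 in controls (SD, n = 3 each), and it overlaps Rnf214 on the opposite strand. Of other ADAM proteases, 2 of 8 passed the filter and 0 the test. Adam17, which also cuts neuregulin, averaged 117 ± 14.5 TMM-scaled CPM in PINCH1 mutants, 105 ± 9.71 in PINCH2 mutants and 101 ± 17.6 in controls (SD, n = 3 each), and it overlaps Iah1 on the opposite strand. Adam10 had log2 fold changes of -0.47 (SE 0.31) in PINCH1 mutants and -0.49 (SE 0.31) in PINCH2 mutants against controls, with adjusted p of 0.837 and 0.999 by edgeR.

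Radial sorting, the step that is late without Lgi4, was described by 15 genes, of which 13 passed the filter and 0 the test. Their median log2 fold change was -0.13 in PINCH1 mutants and -0.26 in PINCH2 mutants against controls. Itga6, a laminin receptor subunit, had a log2 fold change of -0.29 (SE 0.19, edgeR adjusted p = 0.842) in PINCH1 mutants and -0.52 (SE 0.19, edgeR adjusted p = 0.999) in PINCH2 mutants against controls. Ilk, the kinase that PINCH proteins bind, had log2 fold changes of 0.11 (SE 0.18) in PINCH1 mutants and 0.23 (SE 0.18) in PINCH2 mutants against controls, and it overlaps Taf10 and Rrp8. All 7 myelination transcription factors passed the filter and 0 the test, with medians of -0.10 in PINCH1 mutants and -0.22 in PINCH2 mutants against controls. Nab2, a cofactor of Egr2, had log2 fold changes of 0.09 (SE 0.19) and 0.10 (SE 0.19) in the same order, and Yy1, a zinc-finger factor, of -0.10 (SE 0.35) and -0.22 (SE 0.35). Nab2 overlaps Nemp1, Stat6 and Gm16229 on the opposite strand.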

How the data were processed

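Per the labels, TruSeq libraries were made from total RNA of nerve pools. Per the submitters' processing notes, the tools were HISAT2 2.0.5, cutadapt 1.9.1 and Trim Galore 0.4.2, with the GRCm38 build. The deposited table, made by the authors, holds whole-number counts for each entry and library, not scaled for depth or length. For the counting, the tool, the annotation and the handling of strand are not given in the sources.

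Entries were matched by identifier to GENCODE M21 (96.4% matched), and exon overlaps were found with bedtools 2.31.1. Sequences were cut from GENCODE M21 transcripts. Differences were tested with edgeR 4.0.16 in R 4.3.3 (quasi-likelihood F-test, robust dispersion, TMM, filterByExpr, genotype only, all 9 libraries), adjusted by Benjamini-Hochberg over 4738 entries. SE was taken from the size of the log2 fold change over the square root of F. Replicates are pools, so p-values measure the spread between pools, and no pair of pools of 1 genotype agreed within sampling noise. Intervals and floors cover counting error only. Counts were simulated for PINCH1 mutants against controls over 4738 entries, with 200 of them changed. Of the changed entries tested, 19.8% of 96 changed 2-fold and 72.3% of 94 changed 4-fold were recovered, and 4 of 91 calls were on unchanged entries. The data gave 3 calls in this comparison, and recovery at the stricter cutoff that fewer calls bring was not measured.

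Members and lists were chosen with earlier results of these data known. Beside the members, the text names the 5 tested entries most correlated with each (log2 CPM, prior count 2), opposite-strand partners, all LGI, receptor and FXYD genes, and the 2 most abundant genes of each other list. A few items that the rule selects are not reported here. Sri, AC140364.1, Lims1, Lims2, Krt10, Cdh1, Nrg1 and the neuron markers fall outside it. Alternatives were upper-quartile and RLE scaling, TMM with the 20 top entries left out, separate scaling of entries with a partner, DESeq2 1.42.0, limma-voom (limma 3.58.1), other filters, only the 6 libraries compared, a replicate block, an adjusted p of 0.01, the joined locus, each library left out and, added after seeing the data, library totals without TMM.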

Additional observations from a re-analysis of the deposited data

How the results depend on the processing

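No member passed an adjusted p of 0.05 in any of 186 values from 21 settings, and the smallest was 0.108, for Fxyd3 between PINCH1 and PINCH2 mutants with entries kept at 1 CPM or more in 3 libraries or more (log2 fold change -0.47). Fxyd3 stayed below 0 in both comparisons that hold PINCH1 mutants under all of them, and Adam22 above 0 in PINCH2 mutants against controls, at 0.50 to 0.67 with a library left out. Values near 0 changed sign. Lgi4 in PINCH1 mutants against controls was -0.018 with entries scaled separately by partner and -0.35 joined with Fxyd3, and in PINCH1 against PINCH2 mutants 0.016 with the replicate block. Fxyd3 in PINCH2 mutants against controls fell below 0 without control replicate 2 and without PINCH2 mutant replicate 3, and stayed above 0 in the other settings. The cause was not tested, except that the joined value is mostly Fxyd3.

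With a library left out, Lgi4 ran from -0.24 to 0.29 in PINCH1 mutants against controls, from -0.19 to 0.33 in PINCH2 mutants against controls and from -0.23 to 0.13 between the mutants. Fxyd3 ran from -0.55 to -0.25, from -0.065 to 0.11 and from -0.57 to -0.29 in these comparisons, and Adam22 from -0.14 to 0.29 in PINCH1 mutants against controls and from -0.72 to -0.29 between the mutants. The Fxyd3 share differed by -5.22 to -2.28 points, by -1.88 to 1.06 points and by -4.76 to -2.35 points.

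Counts of all entries called were small and moved. Between PINCH1 mutants and controls there was 1 higher and there were 2 lower. DESeq2 gave 3 higher, no filter 8 higher and 7 lower, the filter at 1 CPM 8 and 8, and the replicate block 2 higher. Separate scaling gave 1 lower, and the 6 libraries alone, limma-voom, library totals and an adjusted p of 0.01 gave 0 lower. Leaving out a library gave 1 to 4 higher and 0 to 5 lower. Between PINCH2 mutants and controls edgeR called 0 higher and 1 lower (unadjusted p under 0.05: 79 and 123), DESeq2 called 0 and 1, and limma-voom, the 6 libraries alone, the replicate block and an adjusted p of 0.01 gave 0 lower, with 0 to 1 lower when a library was left out. Between PINCH1 and PINCH2 mutants 2 and 2 were called, 6 and 4 by DESeq2, 12 and 8 with no filter, 13 and 14 with the filter at 1 CPM, 5 higher with the 6 libraries alone and 1 lower by limma-voom, and 2 to 5 higher and 1 to 4 lower with a library left out.

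Whether replicate numbers pair the samples was not decided. Same-numbered libraries deviated with correlations of -0.11 to 0.25, with no reference from libraries of unlike number, and the block moved no member past the threshold. At 49 to 90 counts a library, counting error limits the precision of Adam22 more than that of the other members.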
